A study of Mus musculus with 20 samples.

Results

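Macrophages in hindlimb muscle of mice with and without a muscle Bmal1 knockout were followed through 10 genes: Lyz2, Cd68, Adgre1, Csf1r, Cd163, Mrc1, C1qa, C1qb, C1qc and Ccl2. They were chosen by symbol, as genes that macrophages or their recruitment are known by, and with earlier results of these data known. All 10 had 1 row each among the 21844 genes of the count table, and all 10 were among the 14359 genes tested. The 20 libraries fell into 4 groups of 5. All mice, the vehicle controls included, were labelled Cre+:iMSBmal1 fl/fl, so every animal carried the floxed Bmal1 alleles and the Cre. The vehicle sedentary group received vehicle and no exercise, and the knockout sedentary group was labelled iMSBmal1KO with no exercise. The vehicle trained and knockout trained groups had 6 weeks of daily treadmill training. Muscle was collected 48 hours after the last bout per the sample labels and 47 hours per the series design, and the labels name both the gastrocnemius and the tibialis anterior. The promoter that drives Cre, the agent that induces it, and the age and sex of the mice are not given in the sources used here. One library, vehicle trained library 2, stands apart and is described at the end on its own.

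Macrophages are a minority of the cells of a resting muscle, where they lie between fibres and around vessels, clear dead material and act on fibre repair and on the fibroblast-like cells of the interstitium. Resident cells depend on signalling through CSF1R, the receptor of the growth factors CSF1 and IL34, and many carry the scavenger receptors CD163 and CD206 (the product of Mrc1). After damage, monocytes enter from the blood, drawn by chemokines such as CCL2. Bmal1 encodes a transcription factor of the circadian clock, and its deletion here was aimed at muscle fibres, whereas macrophage transcripts come mainly from other cells of the tissue.

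Promoters of the genes were searched for short sequences that known factors bind, and the 4 that hold the letters GAGGAA are printed. Whether these letters bear on the levels of the genes was not tested. The RefSeq promoter table for GRCm38.p6, which runs from 250 bases before a start site to 50 bases after it, gave windows of 300 bases for 6 of the 10 genes: Lyz2, Cd68, Cd163, Mrc1, C1qb and C1qc. Capitals mark GAGGAA, the core bound by the macrophage lineage factor PU.1, or the AP-1 site TGACTCA, on either strand. A match on the other strand reads TTCCTC or TGAGTCA. The windows lie at chr4:136886151-136886450 (minus strand) for C1qb, chr4:136892865-136893164 (minus strand) for C1qc, chr11:69666121-69666420 (minus strand) for Cd68 and chr2:14229164-14229463 (plus strand) for Mrc1.
C1qb: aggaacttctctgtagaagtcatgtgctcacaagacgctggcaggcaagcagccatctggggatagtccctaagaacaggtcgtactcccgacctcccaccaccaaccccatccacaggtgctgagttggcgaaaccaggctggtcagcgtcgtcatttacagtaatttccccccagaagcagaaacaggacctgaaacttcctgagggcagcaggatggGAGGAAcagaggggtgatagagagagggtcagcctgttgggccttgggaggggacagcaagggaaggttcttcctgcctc
C1qc: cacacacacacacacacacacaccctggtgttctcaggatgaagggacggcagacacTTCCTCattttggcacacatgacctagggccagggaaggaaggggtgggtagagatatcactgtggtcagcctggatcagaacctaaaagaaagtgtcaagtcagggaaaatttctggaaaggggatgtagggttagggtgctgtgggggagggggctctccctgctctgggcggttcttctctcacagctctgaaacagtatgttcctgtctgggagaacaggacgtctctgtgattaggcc
Cd68: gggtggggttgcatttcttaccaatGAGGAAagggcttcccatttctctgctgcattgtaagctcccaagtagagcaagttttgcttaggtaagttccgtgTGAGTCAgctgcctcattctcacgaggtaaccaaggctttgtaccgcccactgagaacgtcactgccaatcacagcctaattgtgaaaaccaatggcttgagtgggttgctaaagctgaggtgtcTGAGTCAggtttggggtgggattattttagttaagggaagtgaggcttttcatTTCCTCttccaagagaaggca
Mrc1: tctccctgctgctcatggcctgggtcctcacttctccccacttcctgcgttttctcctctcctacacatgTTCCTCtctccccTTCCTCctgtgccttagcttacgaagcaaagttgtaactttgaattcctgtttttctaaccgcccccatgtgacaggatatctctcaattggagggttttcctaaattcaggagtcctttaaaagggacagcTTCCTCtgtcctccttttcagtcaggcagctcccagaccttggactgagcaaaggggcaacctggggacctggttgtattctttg

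GAGGAA was present in 4 of the 6 windows, those printed, and in 28.3% of 32851 promoters of the same length. In C1qb it stood once, 30 bases before the start site, and in C1qc once, on the other strand, 193 bases before it. Cd68 held it at -225 and, on the other strand, at +30, and Mrc1 held it 3 times on the other strand, at -180, -167 and -35. TGACTCA stood in 1 window, that of Cd68, with sites on the other strand at -149 and -24, against 5.2% of all promoters. The E-box CACGTG, the letters that BMAL1 with its partner CLOCK is known to bind, stood in 0 of the 6 windows, against 7.15% of all promoters. These are letter matches within 300 bases and were set beside no binding data.

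Library totals ran from 10610333 to 19153527 estimated counts. Knockout trained libraries 1 and 4, and libraries 3 and 5, were near-identical by the rule given with the processing. Each pair was counted as 1 sample, so the knockout trained group has n = 3. At low and high counts their squared differences were still 1.75 to 2.38 times those of counting noise alone. For vehicle trained libraries 4 and 5 the value at high counts was 6.38. Without vehicle trained library 2, 17 samples entered the tests. The knockout label did not go with less Arntl, the files' symbol for Bmal1. Arntl lay at 5.68 to 7.93 CPM (counts scaled to a library total of 1000000) in vehicle sedentary, 10.96 to 18.9 in knockout sedentary, 6.32 to 6.68 in 4 vehicle trained libraries and 7.91 to 17.7 in knockout trained libraries. It was higher in the libraries labelled knockout, by 0.92 on the log2 scale in sedentary muscle (edgeR quasi-likelihood test, adjusted p = 0.00115) and by 0.81 in trained muscle (adjusted p = 0.0148). A whole-gene count does not show whether a deleted exon is missing, and each knockout direction below rests on the labels. The deposited labels do not say that libraries came from separate animals, so p-values measure the spread between these samples.

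The 10 genes were low in abundance. Scaled to exon length, so that genes can be compared, the mean level over 17 samples was 69.4 CPM per kilobase for Lyz2, which encodes the lysozyme of macrophages and neutrophils. The 3 genes of the C1q complex followed, C1qa at 17.8, C1qb at 14.6 and C1qc at 8.77 CPM per kilobase. Csf1r (3.03), Cd163 (3.01), Cd68 (2.76) and Mrc1 (2.76 CPM per kilobase) lay so close to each other that their order is within the spread between samples. Adgre1, which encodes the F4/80 antigen, was at 1.24 and Ccl2 at 0.711 CPM per kilobase. Counting error was small beside the spread between samples for Lyz2, with a coefficient of variation of 3.57% from counting and 57.1% within groups on average. Ccl2, with 2 to 23 counts a library, had 41.2% from counting and 62.5% within groups. Lyz1, a close copy of Lyz2, was listed at 1.16 to 17.4 CPM in the same 19 libraries, and how reads shared by the copies were assigned is not given in the sources used here. Of the Csf1r exon bases, 15.1% overlap Hmgxb3 on the opposite strand, and the strand setting is likewise not given.

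The groups overlapped for every one of the 10 genes in every comparison. Within a group, with each near-identical pair averaged to 1 sample, the highest sample stood 1.95 to 8.09 times as high as the lowest, depending on the gene. Lyz2 read 25.1, 72.1, 91.2, 113 and 42.6 CPM in vehicle sedentary libraries 1 to 5, and 91.1, 102, 129.6, 59.1 and 40.0 CPM in knockout sedentary libraries 1 to 5. In vehicle trained libraries 1, 3, 4 and 5 it read 181, 83.8, 159 and 93.9 CPM, and in knockout trained libraries 1 to 5 it read 28.5, 191, 54.9, 24.6 and 51.0 CPM. The highest of these values and the lowest both lie in the knockout trained group, and library 2 of that group stands far above its other libraries. In a bulk sample, fewer macrophages and less of a transcript in each macrophage cannot be told apart.

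Cd68, which encodes a lysosomal glycoprotein of phagocytes, lay at 0.928 to 5.19 CPM in vehicle sedentary, 1.29 to 5.72 in knockout sedentary, 1.85 to 8.27 in the 4 vehicle trained libraries and 1.16 to 5.12 CPM in knockout trained libraries. Adgre1 lay at 0.928 to 6.20, 1.90 to 4.93, 3.63 to 9.21 and 0.754 to 7.19 CPM in the same order of groups. Both were low in libraries in which Lyz2 was low, such as vehicle sedentary library 1, where each had 12 counts.

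Csf1r read 6.97, 13.5, 17.4, 24.0 and 8.41 CPM in vehicle sedentary libraries 1 to 5, and 13.1, 19.96, 23.2, 17.2 and 10.04 CPM in knockout sedentary. It read 42.8, 16.6, 28.1 and 12.5 CPM in vehicle trained libraries 1, 3, 4 and 5, and 5.35, 25.0, 11.5, 8.23 and 12.9 CPM in knockout trained libraries 1 to 5. Vehicle trained library 1 was the highest of the 19 libraries and library 5 of the same group lay below the median of the sedentary vehicle libraries.

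Cd163, the receptor that takes up haptoglobin-bound haemoglobin, showed the widest gap between the trained groups. It read 35.8, 14.1, 34.3 and 16.9 CPM in vehicle trained libraries 1, 3, 4 and 5, and 5.97, 16.3, 8.24, 3.77 and 7.37 CPM in knockout trained libraries 1 to 5. Knockout trained library 2 was the only knockout trained library to reach the range of the vehicle trained group. In sedentary muscle it read 6.34, 13.2, 14.4, 27.0 and 8.86 CPM with vehicle and 13.8, 18.7, 26.2, 9.99 and 10.97 CPM with the knockout label, and those groups overlapped throughout.

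Mrc1, which encodes the mannose receptor CD206, read 39.0, 17.3, 30.4 and 15.3 CPM in vehicle trained libraries 1, 3, 4 and 5, and 6.50, 22.5, 13.1, 6.13 and 9.96 CPM in knockout trained libraries 1 to 5. Vehicle sedentary libraries 1 to 5 read 5.57, 12.6, 18.8, 23.7 and 9.53 CPM and knockout sedentary libraries 15.5, 24.2, 23.2, 15.1 and 8.54 CPM. As for Cd163, 1 knockout trained library lay within the vehicle trained range and the other 4 lay below it.

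C1qa, C1qb and C1qc encode the 3 chains of C1q, the protein that starts the classical complement pathway, and stand next to each other on chromosome 4 with no other gene between them in the RefSeq annotation. C1qb read 6.42, 13.4, 14.3, 17.8 and 6.90 CPM in vehicle sedentary libraries 1 to 5 and 14.7, 16.3, 23.6, 14.8 and 9.14 CPM in knockout sedentary. It read 34.2, 13.5, 26.2 and 12.6 CPM in vehicle trained libraries 1, 3, 4 and 5, and 5.70, 30.2, 10.6, 5.84 and 10.9 CPM in knockout trained libraries 1 to 5. C1qa ranged from 5.28 to 46.0 CPM and C1qc from 4.25 to 41.4 CPM over the 19 libraries. The proportion between the chains moved far less. Per exon length, and relative to the mean of the 3 chains, C1qa stood at 1.12 to 1.45 times that mean in the 17 samples, C1qb at 0.917 to 1.19 and C1qc at 0.421 to 0.694.

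Ccl2, the chemokine gene, read 0.155, 1.20, 0.627, 1.25 and 0.916 CPM in vehicle sedentary libraries 1 to 5 and 0.369, 1.26, 0.235, 0.521 and 0.677 CPM in knockout sedentary. It read 1.08, 0.492, 1.02 and 1.39 CPM in vehicle trained libraries 1, 3, 4 and 5, and 0.356, 1.76, 0.168, 0.188 and 0.891 CPM in knockout trained libraries 1 to 5. All groups overlapped.

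**Figure D1:**
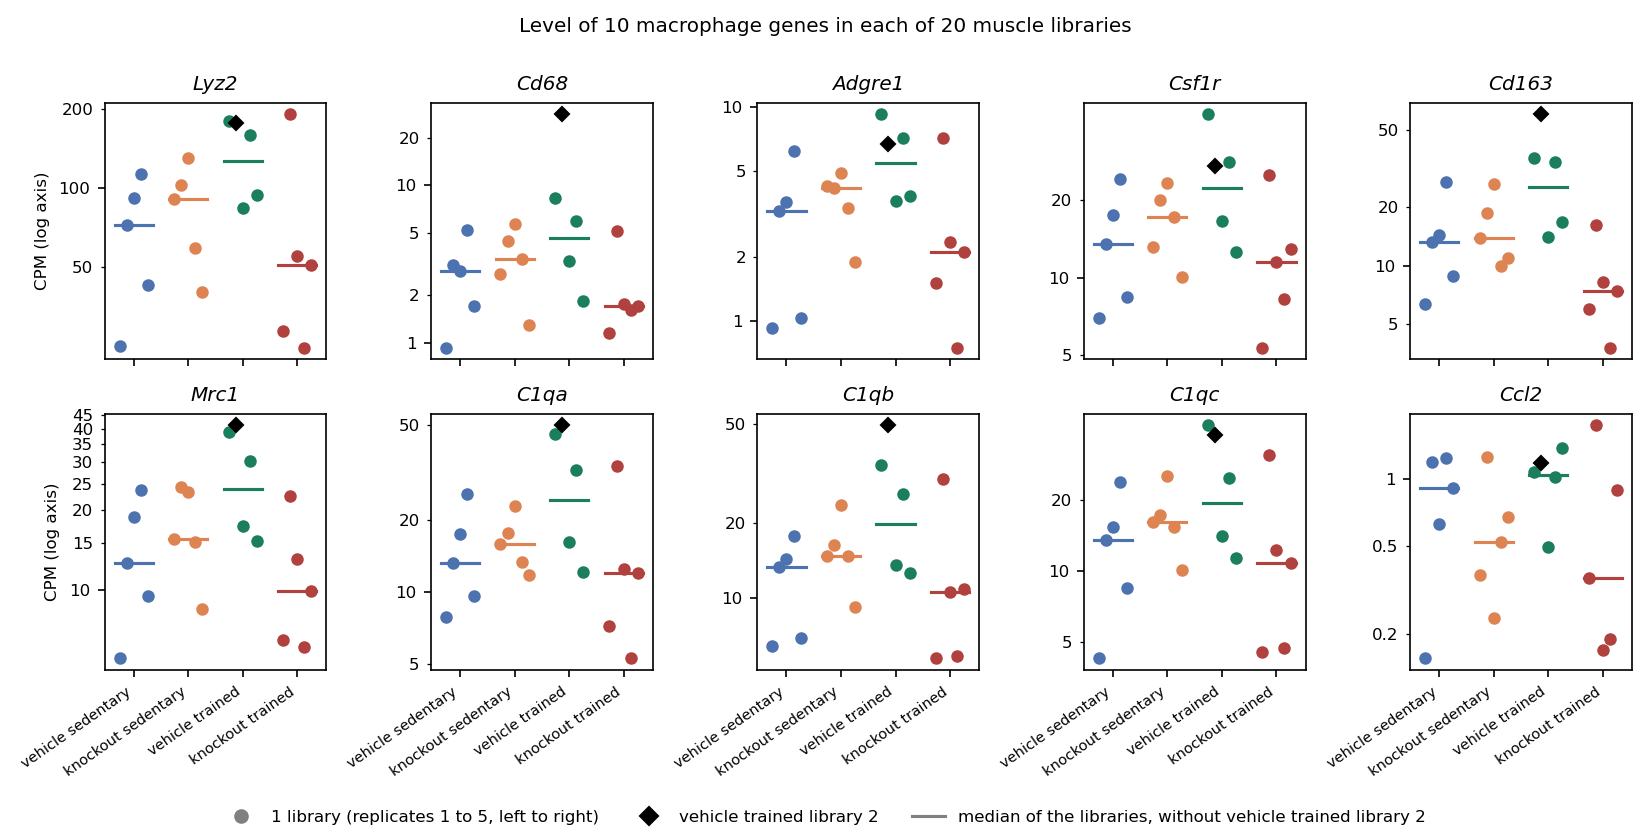
Level of each gene in CPM (log axis) in the 20 libraries by group, with 1 point a library and a line at the median of the libraries; the black diamond is vehicle trained library 2, left out of the median. Within each group the points spread over several-fold, the groups overlap for all 10 genes, and the diamond stands above all other points for Cd68, at 28.3 CPM.

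Summed over the 10 genes, the level lay at 64.5 to 267 CPM in vehicle sedentary (mean 157 ± 80.2 SD, n = 5) and 104 to 285 CPM in knockout sedentary (191 ± 69.0 SD, n = 5). It lay at 182 to 439 CPM in vehicle trained (288 ± 127.5 SD, n = 4) and 63.9 to 363 CPM in knockout trained (184 ± 159 SD, n = 3). The mean was highest in vehicle trained for 10 of the 10 genes. It was lowest in vehicle sedentary for 6, in knockout trained for 3 (Cd68, Cd163 and Mrc1) and in knockout sedentary for 1 (Ccl2). The median SD within groups of log2(CPM + 1) was 0.69 for the 10 genes and 0.21 for all tested genes, and each of the 10 lay above 0.21.

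The first comparison asks what the knockout label goes with in sedentary muscle. The fitted log2 change was above 0 for 9 of the 10 genes, with a median of 0.25 against 0.02 over all tested genes, and 0 of 10 passed the adjusted threshold of 0.05 in edgeR, DESeq2 or limma. Of all tested genes, 6.98% passed it in edgeR. At an unadjusted p below 0.05 stood 0 of the 10 and 17.6% of all genes. C1qb had the smallest p of the 10, with a log2 change of 0.37 (SE 0.392, 95% interval -0.46 to 1.19, adjusted p = 0.726). The intervals of all 10 genes include 0 and also changes of more than 1.5-fold, so these data do not show that the groups are alike.

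In trained muscle the fitted changes lay on the other side of 0, except for Ccl2. The other 9 genes vary together, so their signs are not separate observations. In trained muscle the log2 change with the knockout label was below 0 for 10 of the 10 genes, with a median of -0.61 against 0.00 over all genes, and again 0 passed the adjusted threshold in edgeR, DESeq2 or limma, where 8.66% of all genes passed it in edgeR. At an unadjusted p below 0.05 stood 1 of the 10, Cd163, and 22.4% of all genes. Cd163 had a mean of 9.65 ± 5.93 CPM (SD, n = 3) with the knockout label and 25.3 ± 11.4 CPM (SD, n = 4) with vehicle, a log2 change of -1.32 (SE 0.466, 95% interval -2.30 to -0.34, adjusted p = 0.0905). Mrc1 followed with -0.85 (SE 0.456, adjusted p = 0.291), and the 3 C1q genes lay between -0.54 and -0.40.

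The median of the 10 genes moved with the libraries counted. Without the sample made of knockout trained libraries 1 and 4 it was -0.18, with 4 of 10 genes above 0. It was -0.26 without vehicle trained library 1, -0.42 without the sample made of knockout trained libraries 3 and 5, and -1.43 without knockout trained library 2.

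The Cd163 result depended on which libraries were counted. With each library as its own sample, Cd163 passed the threshold (log2 change -1.53, adjusted p = 0.0156), as did 14.3% of all genes. Without knockout trained library 2, the high one, it also passed (-1.91, adjusted p = 0.0260, with 7.77% of all genes). Without the sample made of knockout trained libraries 1 and 4 it stood at -0.96, its value nearest to 0. With the replicate number as a block and each library as its own sample, Cd163 (-1.70, adjusted p = 0.0148) and Mrc1 (-1.29, adjusted p = 0.0399) passed, as did 13.5% of all genes.

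Relative to the C1q genes of the same library, Cd163 lay below the vehicle trained range in every knockout trained library except library 1. This ratio was looked at after its values were seen and is given with no test. The CPM of Cd163 divided by the geometric mean of the 3 C1q genes was 1.04, 0.515, 0.703, 0.717 and 0.657 in knockout trained libraries 1 to 5. The ratio lay at 0.891 to 1.40 in the 4 vehicle trained libraries, 0.919 to 1.22 in vehicle sedentary and 0.690 to 1.10 in knockout sedentary. Library 1 of the knockout trained group lay inside the other ranges, and its near-identical partner, library 4, did not reach the trained vehicle range. Libraries 3 and 4 lay inside the knockout sedentary range. With each near-identical pair as 1 sample, the knockout trained ratios were 0.515, 0.680 and 0.884, so the knockout trained and knockout sedentary ranges overlapped.

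Training in vehicle muscle went with higher fitted levels of all 10 genes, none of which passed the test. The log2 change lay between 0.83 and 1.01 for 9 genes and was 0.27 for Ccl2, with a median of 0.88 against -0.00 over all tested genes. In edgeR 0 of the 10 genes, and 0% of all tested genes, passed the adjusted threshold, and 0 of the 10 passed in DESeq2 or limma. At an unadjusted p below 0.05 stood 4 of the 10 (Csf1r, Cd163, Mrc1 and C1qb), against 13% of all genes. Adgre1 had the highest change, 1.01 (SE 0.498, 95% interval -0.04 to 2.05, adjusted p = 0.395). Cd163 had the smallest p, with a change of 0.88 (SE 0.389, adjusted p = 0.365). Vehicle trained library 1 lay above every sedentary library for 9 of the 10 genes and library 4 for 8, while libraries 3 and 5 lay within the sedentary range for all genes except Ccl2 in library 5. Without vehicle trained library 1 the changes of the 9 genes other than Ccl2 lay between 0.39 and 0.74.

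In the libraries labelled knockout, training went with no common direction. The log2 change was above 0 for 6 of the 10 genes and below 0 for 4, with a median of 0.04, and 0 of 10 passed in edgeR, DESeq2 or limma, against 0.843% of all genes in edgeR. At an unadjusted p below 0.05 stood 0 of the 10 and 17.5% of all genes. Cd163 was at -0.59 (SE 0.448, adjusted p = 0.545) and Ccl2 at 0.52 (SE 0.625, adjusted p = 0.737). Without knockout trained library 2 the change was below 0 for all 10 genes, from -1.18 for Cd163 to -0.44 for Ccl2, and without the sample of libraries 1 and 4 it was above 0 for 9 of 10.

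The interaction, which is the difference between the training effects with the knockout label and with vehicle, was below 0 for 9 of the 10 genes, with a median of -0.84 against 0.00 over all genes. Cd163 was at -1.47 (SE 0.595, 95% interval -2.72 to -0.22, adjusted p = 0.356), the only 1 of the 10 at an unadjusted p below 0.05, where 11.4% of all genes stood. In edgeR 0 of the 10 and 0% of all genes passed the adjusted threshold, and 0 of the 10 passed in DESeq2 or limma. These comparisons share groups, so the same samples enter several of them: the 4 vehicle trained libraries enter the training effect, the knockout effect in trained muscle and the interaction.

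**Figure D2:**
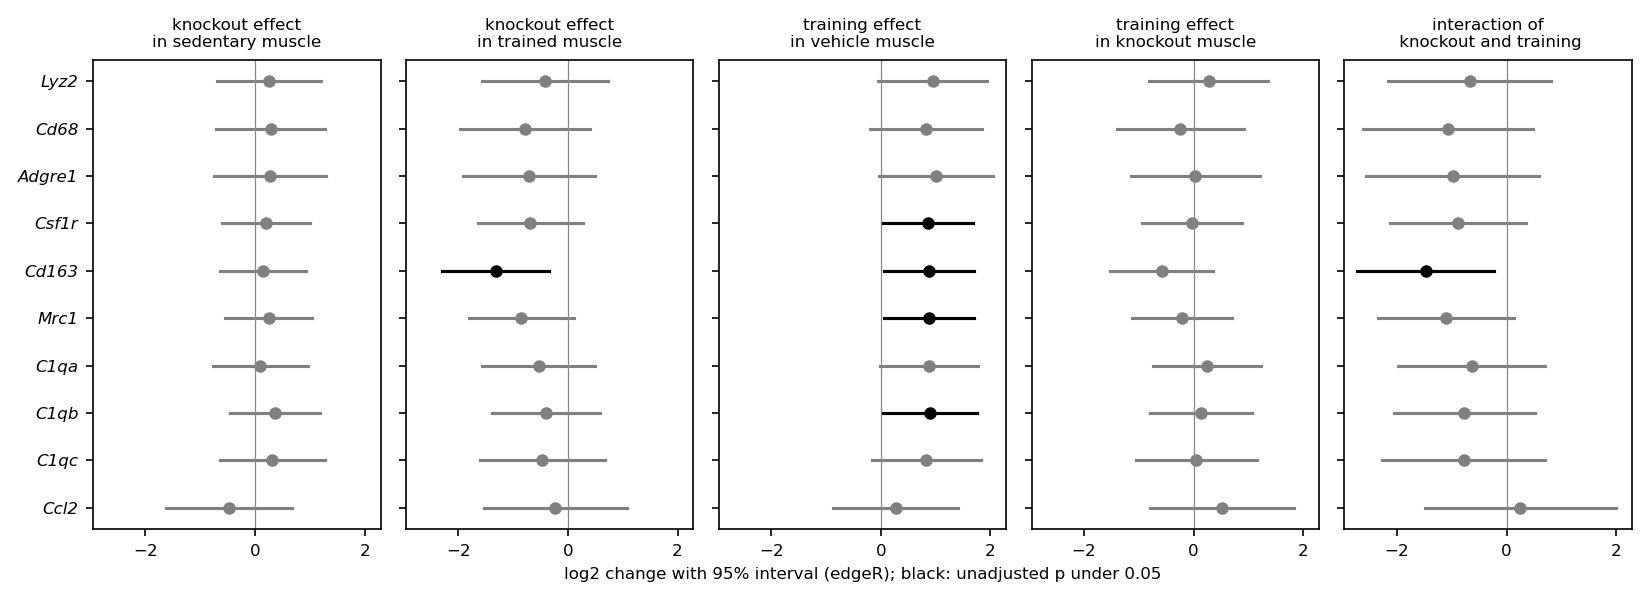
Fitted log2 change of each gene with its 95% interval (x axis) in the 5 comparisons, without vehicle trained library 2; black marks an unadjusted p below 0.05. All 10 genes lie above 0 for training in vehicle muscle and below 0 for the knockout label in trained muscle, and none passes the adjusted threshold.

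Across samples 9 of the 10 genes varied together, and Ccl2 less so. Over 17 samples, Pearson's r of log2(CPM + 1) between pairs of the other 9 genes lay between 0.88 and 0.97, with a median of 0.95 over 36 pairs. With the group means removed it lay between 0.89 and 0.97, so replicates of 1 group shared the pattern too. Without the 2 samples farthest from the median (knockout trained 1 with 4, and vehicle trained 1) it lay between 0.81 and 0.96. Ccl2 correlated with the other 9 at 0.44 to 0.59. With 2 to 23 counts a library, counting error can lower these values, and by how much was not tested. All genes were read from the same samples, so these values are a description and carry no p.

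**Figure D3:**
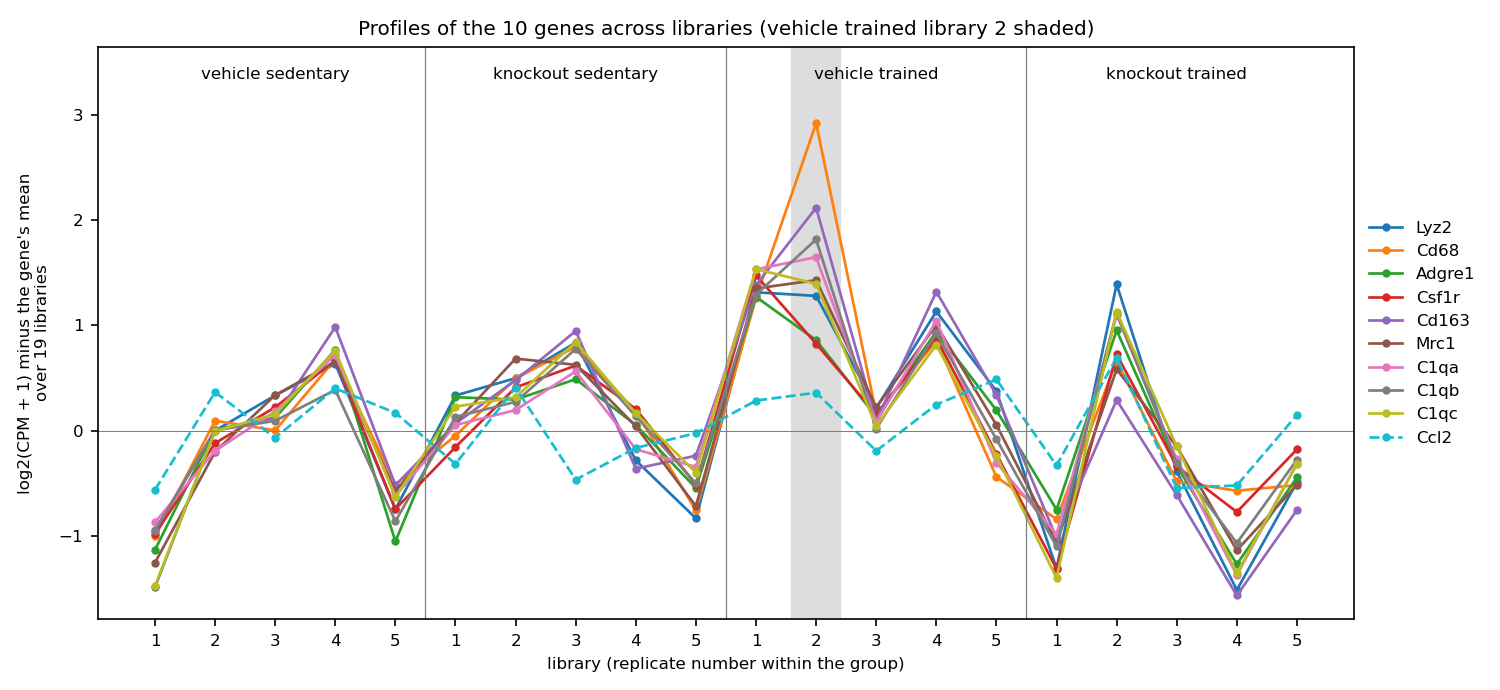
Each line follows 1 gene over the 20 libraries, as log2(CPM + 1) minus its mean over 19 libraries; the shaded column is vehicle trained library 2, and Ccl2 is dashed. Apart from Ccl2 the lines run close together, with peaks at vehicle trained libraries 1 and 4 and knockout trained library 2, and they fan out in vehicle trained library 2.

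Genes outside the list with the same profile were mostly known macrophage genes. Among 14349 other tested genes, whose median r with the mean profile of the 10 genes was 0.01, the 10 closest were Laptm5, Fcgr3, Pf4, F13a1, Cd209f, Ctss, Rassf2, Ccl9, Folr2 and Rab3il1, with r between 0.96 and 0.97 over 17 samples. Laptm5 encodes a lysosomal membrane protein of blood cells, Fcgr3 an Fc receptor, Ctss the protease cathepsin S and Folr2 a folate receptor of resident macrophages. Closest to Mrc1 alone were F13a1, Rassf2 and Cd33, each at 0.97. Closest to Ccl2 were Gm17494 (0.78), Rps4x-ps (0.78) and Babam1 (0.76), none of which is in any of the macrophage lists used here. Taken as lists, the mean z-scores of general phagocyte (r = 0.98), complement (0.97), resident macrophage (0.97) and lipid and repair genes (0.95) followed the 10 genes closely, chemokine and monocyte genes less closely (0.84 each), and the lineage factors and CSF1R ligands least (0.41).

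Of the 16 tested resident macrophage genes, 1 passed the test in each knockout comparison. Of all tested genes, 6.98% passed in sedentary and 8.66% in trained muscle. The 1 gene moved against the 10 genes in trained muscle. Gas6, which encodes a ligand of receptors for dying cells, was higher with the knockout label by 0.37 on the log2 scale in sedentary muscle (adjusted p = 0.0429) and by 0.52 in trained muscle (adjusted p = 0.0159). The median of the list in trained muscle was -0.55, with 14 of 16 genes below 0, and in the training effect with vehicle it was 0.66, with 16 of 16 above 0 and 0 passing. Of 21 general phagocyte genes (Fc receptors, integrins, proteases) 0 passed in any of the 5 comparisons in edgeR, with 0, 0, 4, 0 and 0 at an unadjusted p below 0.05. In the same order of comparisons as above, 17.6%, 22.4%, 13%, 17.5% and 11.4% of all tested genes stood below that unadjusted p. Their median was 0.77 for training with vehicle, with 21 of 21 above 0, and -0.41 for the knockout label in trained muscle, with 20 of 21 below 0.

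Among 12 complement genes outside C1q, Clu, which encodes the complement inhibitor clusterin, was lower with the knockout label in sedentary muscle, at 22.8 ± 4.36 CPM (SD, n = 5) against 33.4 ± 4.70 CPM (SD, n = 5), a fall by 0.60 on the log2 scale (adjusted p = 0.00486). No other gene of that list passed in any comparison, and 6.98% of all tested genes passed with the knockout label in sedentary muscle. Among 8 tested chemokine genes, Cx3cl1, the ligand of the monocyte receptor CX3CR1, was higher with the knockout label in sedentary muscle, at 8.55 ± 4.15 against 2.49 ± 0.634 CPM (SD, n = 5 each), by 1.73 on the log2 scale (adjusted p = 0.000241). Ccl3 and Ccl4 were not analysed here.

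Of 6 tested monocyte and inflammatory genes, Nos2, the inducible nitric oxide synthase, was higher with the knockout label in trained muscle, at 3.85 ± 0.781 CPM (SD, n = 3) against 1.71 ± 0.717 CPM (SD, n = 4), by 1.22 on the log2 scale (adjusted p = 0.0147). Chil3 and Il1b, also in that list, were at 0 in at least 10 of the 20 libraries. Of 11 lipid and repair macrophage genes, Igf1, a growth factor for fibres made by several cell types, was lower in the same comparison, at 31.1 ± 8.80 CPM (SD, n = 3) against 61.8 ± 8.59 CPM (SD, n = 4), a fall by 0.92 on the log2 scale (adjusted p = 0.00774). Over all tested genes, 8.66% passed with the knockout label in trained muscle. Of 8 lineage factors and CSF1R ligands, 0 passed in any comparison. Csf1 had the smallest p of these in trained muscle, with a log2 change of -0.64 (adjusted p = 0.132), and Il34 in sedentary muscle, with -0.49 (adjusted p = 0.140). In the training comparisons and the interaction, 0 genes of the 7 macrophage lists passed the adjusted threshold in edgeR.

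Markers of other cells of the interstitium followed the macrophage genes from sample to sample, and their part in the group differences was not tested. Over 17 samples, the mean z-score of 8 fibro-adipogenic genes (Pdgfra, Dcn, Lum, Col1a1, Col3a1, Pi16, Dpp4 and Mfap5) correlated with that of the 10 genes at r = 0.92 (Spearman's rho 0.86, 0.87 without the 2 farthest samples, 0.92 with group means removed). The 5 mast cell genes stood at 0.86 (rho 0.88), the 5 red blood cell genes at 0.75 (rho 0.67) and the 6 adipocyte genes at 0.69 (rho 0.64). The 6 endothelial genes stood at -0.25 (rho -0.21), the 7 muscle fibre genes at 0.16 (rho 0.16) and the library total at 0.30 (rho 0.33, 0.10 without the 2 farthest samples). Of 20 such relations computed, those with T cell, B cell and neutrophil lists rest on 1 tested gene each, at 0.22, 0.05 and 0.44. Dendritic cell genes stood at 0.47, satellite cell genes at -0.25 and Schwann cell genes at -0.10.

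In sedentary muscle 1 of the 8 fibro-adipogenic genes passed, Col3a1, higher with the knockout label by 0.92 on the log2 scale (adjusted p = 0.0188). For training with vehicle, 8 of 8 lay above 0 and at an unadjusted p below 0.05, with a median of 0.67 and 0 past the adjusted threshold, and their summed level was 966 to 2093 CPM in vehicle sedentary and 1599 to 2885 CPM in vehicle trained. For the knockout label in trained muscle, 8 of 8 lay below 0 and 1 passed, Pi16, a fall by 1.15 on the log2 scale (adjusted p = 0.0467), with the summed level at 914 to 1955 CPM in knockout trained. In the interaction 7 of 8 stood at an unadjusted p below 0.05, all 8 below 0 with a median of -0.96. At that unadjusted p stood 13% of all tested genes for training with vehicle and 11.4% in the interaction. The genes of this list were seen to follow the macrophage genes, and they come from the same samples, so they are not separate observations. The summed mast cell level was 4.56 to 25.6 CPM in vehicle sedentary and 10.2 to 52.3 CPM in vehicle trained. Neutrophil genes summed to at most 7.11 CPM in the 4 groups without vehicle trained library 2, with Retnlg at 0 in at least 10 libraries, and T cell genes to at most 5.20 CPM, with Cd3d and Cd8a at 0 in at least 10. Ighm, the immunoglobulin heavy chain of B cells, was higher with the knockout label in trained muscle, by 1.41 on the log2 scale (adjusted p = 0.00376), where the 10 macrophage genes lay below 0. Also past the threshold were the dendritic cell gene Zbtb46, lower by 0.61 in sedentary muscle (adjusted p = 0.00678), the endothelial gene Egfl7, higher by 0.53 in trained muscle (adjusted p = 0.0132), and the fibre gene Mylpf, higher by 0.69 in trained muscle (adjusted p = 0.0406). Of all tested genes, 6.98% passed with the knockout label in sedentary and 8.66% in trained muscle.

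**Figure D4:**
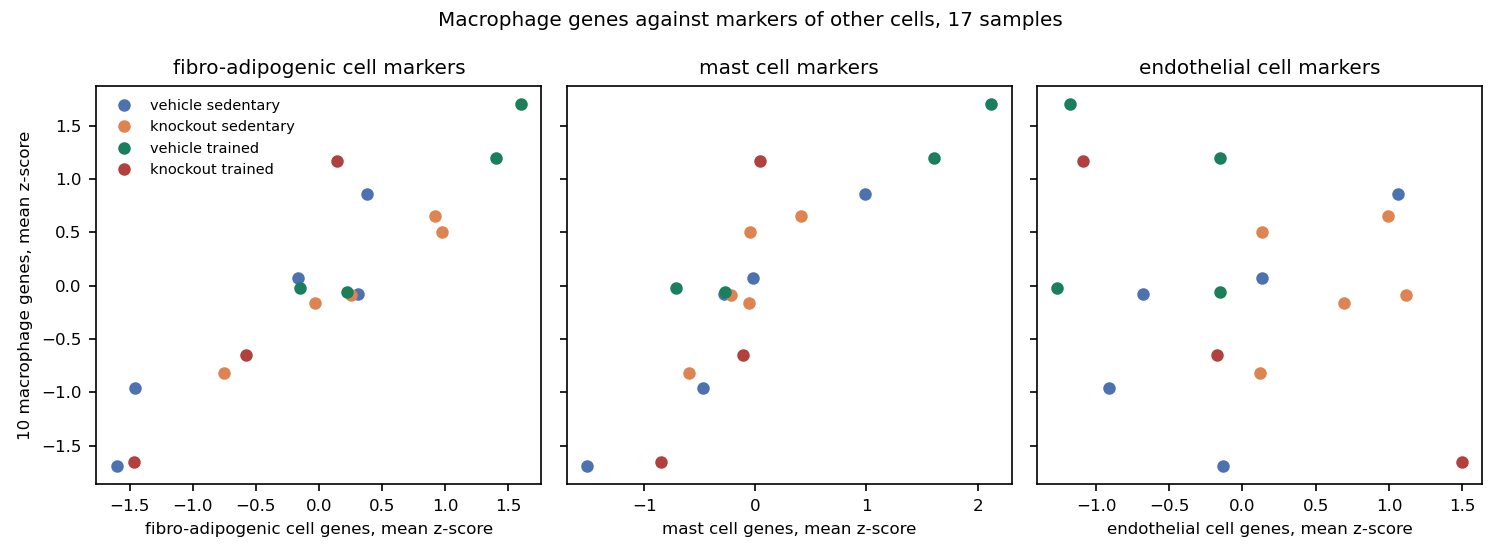
Mean z-score of the 10 macrophage genes (y axis) against that of fibro-adipogenic, mast cell and endothelial marker genes (x axes), with 1 point a sample for 17 samples, coloured by group. The points rise together for the fibro-adipogenic genes (r = 0.92) and mast cell genes (r = 0.86) and show no common rise for the endothelial genes (r = -0.25).

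In vehicle trained library 2 the 10 genes did not keep the proportions they had in the other samples. Cd68 read 28.3 CPM (428 counts) there, against 4.86 CPM on average and 1.85 to 8.27 CPM in the other 4 vehicle trained libraries, which is 5.82 times their mean and 3.42 times the highest of the other 19 libraries. Cd163 read 60.3 CPM, 2.39 times the mean of the other 4, and C1qb 49.5 CPM, 2.29 times that mean. C1qa (1.87 times), C1qc (1.64), Mrc1 (1.62) and Lyz2 (1.36) lay less far above it, and Ccl2 (1.19), Adgre1 (1.12) and Csf1r (1.08) lay near it. All 10 were above the mean of the other 4, with 3 of 10 more than 2-fold, while over all 14359 tested genes 11.5% were more than 2-fold higher, 23.9% more than 2-fold lower, and the median log2 ratio was -0.20. The library differs from the rest of its group by more than 2-fold at 5078 tested genes, against at most 1273 for any other library, and its Arntl level was 132 CPM.

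Set against C1q, the genes stood on both sides of their usual level. Relative to the geometric mean of C1q, Cd68 stood at 0.625 against 0.154 to 0.228 in the other vehicle trained libraries, Csf1r at 0.596 against 1.02 to 1.14 and Adgre1 at 0.147 against 0.229 to 0.319. Cd163 at 1.33 lay within the range of 0.891 to 1.40 of its group. The lysosomal gene was high for its C1q level and the growth factor receptor and F4/80 genes were low for it, each outside the range of its group. For Adgre1, vehicle sedentary library 5 (0.126) and knockout trained library 4 (0.143) lay lower still, so its ratio was not outside the range of the other groups. For Lyz2, Mrc1 and Ccl2 the lowest knockout sedentary ratios, 3.89, 0.830 and 0.00982, were likewise lower.

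Other macrophage genes also differed in both directions, and the genes named here are among the 2 with the largest ratio, up or down, in each list. Spp1, which encodes osteopontin, read 7.66 CPM against 0.976 on average, and Lgals3, galectin-3, 45.2 against 7.94 CPM. The chemokine genes Ccl6 (82.6 against 16.0 CPM) and Cxcl10 (6.47 against 1.06 CPM) were high, as were Fcgr2b (31.6 against 8.59 CPM) and Cebpb, a myeloid transcription factor (263 against 59.7 CPM). Aif1, a phagocyte gene, was low (0.132 against 1.14 CPM). Of 21 general phagocyte genes, 10 were more than 2-fold higher and 2 more than 2-fold lower, with a median log2 ratio of 0.92. Of 16 resident macrophage genes, 0 were more than 2-fold higher and 5 (31.25%) more than 2-fold lower. Among the 5 were Cd209f (0.980 against 8.06 CPM) and Cd209g (0.408 against 4.17 CPM). Over all tested genes, 11.5% were more than 2-fold higher and 23.9% more than 2-fold lower, so the share lower in this list lay near that of all genes. Ccr2, the receptor of CCL2 on monocytes, read 2.84 against 8.73 CPM.

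Markers of other cells moved in this library too. S100a9, a neutrophil gene, read 8.85 CPM against 0.592 on average, and the neutrophil list summed to 30.8 CPM. The fibro-adipogenic genes, which elsewhere followed the macrophage genes, were more than 2-fold lower for 6 of 8, with Pi16 at 4.69 against 108 CPM, and the adipocyte genes for 6 of 6, Lep being listed at 0. Of all tested genes, 23.9% were more than 2-fold lower. Muscle fibre genes had a median log2 ratio of -0.63 and a summed level of 60848 CPM against 76975 to 94753 CPM in the other 4. With 1 library there is no replicate check, and the part of these markers in the macrophage values was not tested.

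Counting the library with its group left 0 of the 10 genes past the threshold in all 5 comparisons, in which 2.33%, 3.29%, 0%, 0% and 0% of all genes passed. For the knockout label in trained muscle, Cd68 moved from -0.79 to -1.82 on the log2 scale (adjusted p = 0.229) and Cd163 to -1.70 (adjusted p = 0.0949). For training with vehicle, Cd68 moved from 0.83 to 1.87 (adjusted p = 0.272).

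**Figure D5:**
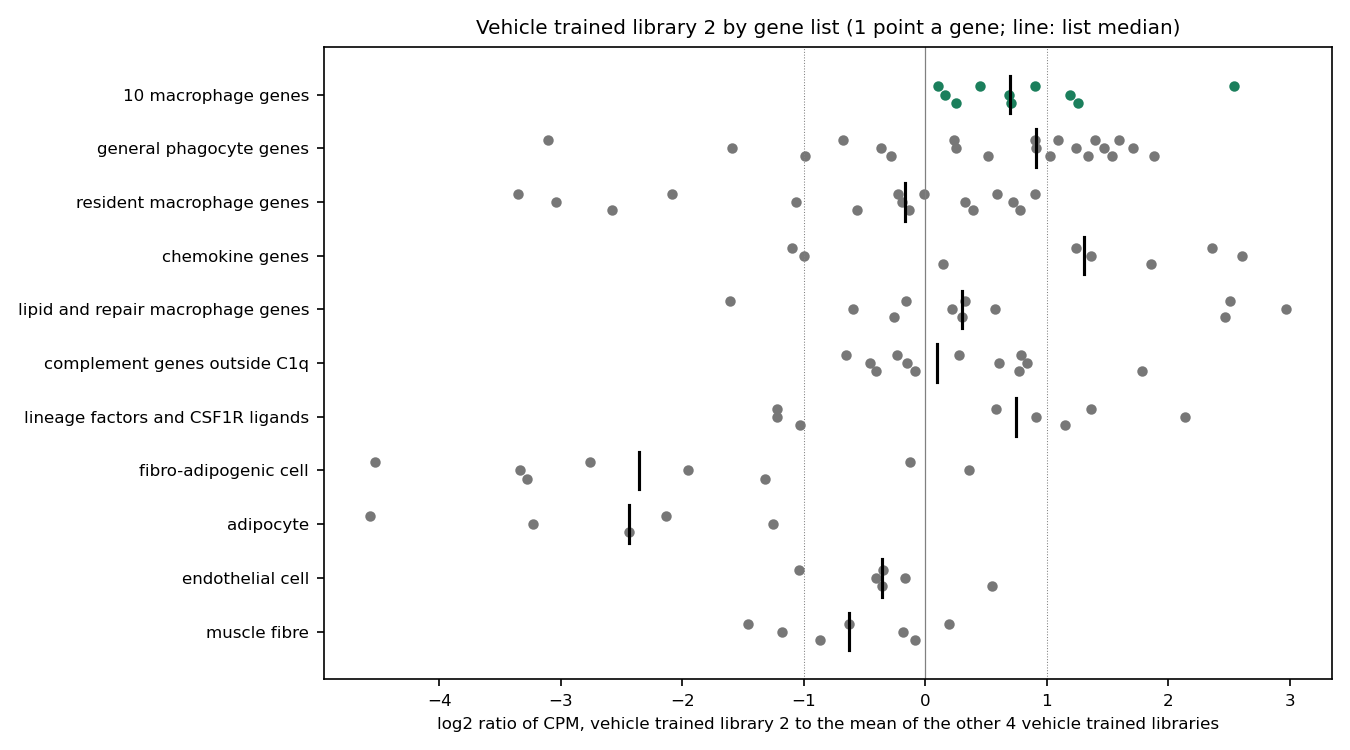
Log2 ratio of the CPM of vehicle trained library 2 to the mean of the other 4 vehicle trained libraries (x axis), with 1 point a gene and a line at the median of the points, by gene list; dotted lines mark 2-fold, and Lep, listed at 0, is not drawn. The 10 macrophage genes lie above 0 with Cd68 farthest at 2.54, the resident macrophage genes spread to both sides, and most fibro-adipogenic and adipocyte genes lie far below.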

How the data were processed

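RNA from hindlimb muscle was sequenced in 20 libraries. Per the labels' protocols, extraction used Trizol with a Qiagen kit, and the library kit came from Illumina. The authors' processing is known from the submitters' processing notes, which name STAR 2.7.8a, Partek, DESeq2 and the builds mm10 and GRCm39 without saying which step used which. The authors deposited expected counts, estimated per gene, under the name of another unit: 79.2% of the values, zeros included, lie within 0.01 of a whole number, library totals differ, and no gene sums to below 10. They were rounded to whole numbers.

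A gene was tested if 5 or more of the 20 libraries reached 1 CPM. The tests used edgeR 4.0.16 (R 4.3.3) quasi-likelihood fits with TMM scaling and 4 group means, two-sided, with Benjamini-Hochberg adjustment over 14359 genes and a threshold of 0.05. For each pair of libraries, the squared difference was divided by that of counting noise. Pairs in which this value at high counts was below 1.5 times that at low counts were summed, and 2 of 190 pairs met this. Vehicle trained library 2 was left out. On data simulated from these counts the fit was checked for recovery of known changes. Alternatives were DESeq2 1.42.0, limma 3.58.1, other scalings, no filter, each library on its own, the replicate block and samples left out in turn. Exon lengths are from GENCODE M21.

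The 10 genes and all lists were chosen with earlier results of these data known, and so was the choice to set vehicle trained library 2 apart. Named beside the 10 genes are, per list and comparison, up to 3 genes past the threshold or the 1 with the smallest p, and the genes closest in profile. The genes named for vehicle trained library 2 were chosen after their values were seen.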

Additional observations from a re-analysis of the deposited data

Results flagged for a closer look

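Cd68 in vehicle trained library 2 stood apart from the rest of its group by a larger gap than a test for single outlying samples allows, at 28.3 CPM against 1.85 to 8.27 CPM in the other 4 libraries. It was the 1 such case among the 30 groups tested (10 genes in groups of 4 or 5), where chance alone would give about 1.5. The library was already known to stand apart from its group, so this flag is no separate evidence.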

How the results depend on the processing

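Of 1550 recomputed values, 1468 kept their direction and their side of the threshold and 43 changed direction. Among the 10 genes, calls arose only for the knockout label in trained muscle: 1 gene with each library as its own sample, 2 with the replicate block, and 0 to 1 with 1 sample left out. The cause of each of these shifts was not tested. Genes called over the whole table moved as follows. With vehicle trained library 2 included, 334 genes were called for the knockout label in sedentary muscle, 473 in trained muscle and 0 for training with the knockout label. With each library as its own sample, 2048 were called for the knockout label in trained muscle, 1 for training with vehicle and 513 for training with the knockout label. With the replicate block, 1944 were called for the knockout label in trained muscle and 1 for training with vehicle. With only the 2 groups compared, 378 and, for training with the knockout label, 0 were called. DESeq2 called 22 for training with vehicle, 715 for training with the knockout label and 116 for the interaction, and limma called 63 for training with the knockout label. With 1 sample left out, calls ran from 612 to 1477 for the knockout label in trained muscle, from 0 to 1 for training with vehicle and from 0 to 1760 for training with the knockout label.

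Of the 43 changes of direction, 30 were for training in the libraries labelled knockout. There, with each library as its own sample, with the replicate block and with limma, Lyz2 was at -0.0856, -0.32 and -0.12, Adgre1 at -0.23, -0.35 and -0.27, C1qa at -0.0218, -0.14 and -0.0584, C1qb at -0.13, -0.25 and -0.14, and C1qc at -0.22, -0.35 and -0.30 on the log2 scale. The interaction of Ccl2 was at -0.41 with the block and -0.0295 with limma. With 1 sample left out, training in the libraries labelled knockout ran from -0.92 to 0.73 for Lyz2, -1.02 to 0.13 for Cd68, -0.99 to 0.49 for Adgre1, -0.66 to 0.35 for Csf1r, -0.80 to 0.16 for Mrc1, -0.66 to 0.68 for C1qa, -0.77 to 0.56 for C1qb, -0.89 to 0.52 for C1qc and -0.44 to 1.01 for Ccl2. The knockout label in trained muscle ran from -1.61 to 0.0388 for Lyz2, -1.30 to 0.0289 for C1qb, -1.41 to 0.00148 for C1qc and -1.20 to 0.25 for Ccl2, with the upper ends reached without knockout trained libraries 1 and 4. In sedentary muscle it ran from -0.0944 to 0.50 for Cd163 and -0.0517 to 0.36 for C1qa, and the interaction of Ccl2 from -0.71 to 0.74.

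Replicate numbers did not pair the samples. Of 27 same-numbered pairs of libraries in different groups, 12 had a correlation of deviations above 0.1 (range -0.48 to 0.35), and 2 of 19 libraries correlated best with their own number. Precision for 9 genes is limited by the spread between samples. For Ccl2, with 2 to 23 counts a library, counting error adds to that spread. Its coefficient of variation was 41.2% from counting and 62.5% within groups. The correlations among the 9 genes kept a median of 0.95 with a pseudocount of 0.1 and 0.93 with vehicle trained library 2.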
